A study of Mus musculus with 19 samples.

Results

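The comparison described here set type 1 conventional dendritic cells (DC1) from the spleen of Batf3-/- mice that carry the Irf8VENUS reporter against DC1 from wild-type (WT) spleens without that reporter. It held 5 of the 19 arrays of the series, chosen by genotype label: 3 arrays labelled Batf3-/- Irf8VENUS+ and 2 labelled WT Irf8VENUS-, called reporter-free WT below. All mice were female, on the C57Bl/6j background, and the cells were sorted from collagenase-digested spleen as B220- SiglecH- CD11c+ MHCII+ cells positive for XCR1, CD24 or both. Age, the way the reporter was built and the number of mice behind an array are not given in the labels, so p-values measure only how far arrays of a group vary, which may be partly technical. A second control, WT Irf8VENUS+ (3 arrays, called reporter WT), carried the reporter and was used to ask which Batf3-/- differences held against both controls. The Batf3-/- cells carried the reporter and the reporter-free WT cells did not, so the Batf3 genotype and the reporter cannot be told apart in the main comparison.

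DC1 are the dendritic cells that take up material from dying cells and present it to CD8 T cells. Their development needs IRF8, a transcription factor that sets the fate of the lineage, and BATF3, an AP-1 family factor that pairs with JUN proteins and binds DNA together with IRF8. BATF3 keeps Irf8 transcription high as the progenitors mature, and mice without it lose most DC1. The cells profiled here are those that still met a DC1 sort gate. In sorted bulk RNA, fewer cells expressing a gene and less RNA per cell cannot be told apart.

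The arrays gave log2 intensities, on which a difference of 1 is a 2-fold change. Of 22180 genes named on the spleen array type, 12875 reached the filter on dim signals (at least 2 arrays at or above 5.04) and were tested. The title of replicate 3 in both reporter groups names CD24 as its only gate, whereas the titles of the other 6 arrays name CD24 with XCR1, so the sort gate was a term of the model. No reporter-free WT array had the CD24-only gate, and the term also takes up anything else particular to the 2 replicate 3 arrays. Replicate 1 of reporter WT stood apart, with a mean correlation of 0.917 to the spleen arrays of the other groups, against 0.937 to 0.951 for each of the other 7 arrays measured the same way. The counts with and without it, and without each other array that moves them by more than 1.5 times, are given with each class of genes.

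Batf3 itself was low on every Batf3-/- array. Reporter-free WT cells had Batf3 at 9.69 and 9.42, reporter WT cells at 9.64, 9.73 and 10.41, and Batf3-/- cells at 6.35, 5.29 and 7.08. The fitted difference was -3.65 ± 0.33 (SE) against reporter-free WT (adjusted p = 0.00412) and -3.69 ± 0.28 against reporter WT (adjusted p = 0.00193). The levels of all 5 WT arrays lay above those of all 3 Batf3-/- arrays, as the labels imply, although the probes may lie outside the deleted part of the gene, whose limits the sources used here do not give.

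Irf8 was higher in Batf3-/- cells than in reporter-free WT and was not called against reporter WT. Reporter-free WT cells had Irf8 at 11.46 and 11.38, reporter WT cells at 12.35, 12.21 and 12.43, and Batf3-/- cells at 12.08, 12.03 and 12.36. The Batf3-/- level therefore rose by 0.66 ± 0.10 against reporter-free WT (adjusted p = 0.0326), while against reporter WT the difference was -0.17 ± 0.08 (adjusted p = 0.537). Between the WT groups Irf8 differed by 0.83 ± 0.10, which missed the threshold (adjusted p = 0.0601). The second probe set of Irf8 gave differences of 0.55, -0.20 and 0.75 for the same comparisons, in that order. Both reporter groups lay above both reporter-free WT arrays and overlapped each other.

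None of the 8 genes behind the sort gate passed the test against reporter-free WT. Cd24a, the gate's common marker, was at 11.99 and 12.08 in reporter-free WT and at 12.39, 12.23 and 12.45 in Batf3-/- cells. Its difference was 0.29 from reporter-free WT and 0.12 from reporter WT, and its second probe set gave larger ones, 0.65 and 0.75. Xcr1, a DC1 marker that encodes the receptor for XCL1, was at 11.26 and 11.11 in reporter-free WT and at 10.98, 10.77 and 8.99 in Batf3-/- cells, the lowest value belonging to the array sorted on CD24 alone. The class II gene H2-Ab1 (12.58 and 12.62 against 12.61, 12.57 and 12.38) and Ptprc, the CD45 gene (11.23 and 11.21 against 11.33, 11.26 and 11.01), overlapped between the groups. The spleen protocol lists CD172a+ in the gate, whereas its gene Sirpa lay near the filter level on all 8 arrays, between 5.35 and 5.84.

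Of the 12875 genes tested, 72 were called against reporter-free WT at an adjusted p under 0.05, which is 0.559% of them, 36 higher (0.28%) and 36 lower (0.28%) in Batf3-/- cells. The same fit called 95 genes (0.738%) against reporter WT, 56 higher (0.435%) and 39 lower (0.303%). In all, 40 genes (0.311%) were called in the same direction against both controls, 22 higher and 18 lower. A further 32 (0.249%) were called against reporter-free WT only and 55 (0.427%) against reporter WT only. Both comparisons use the same 3 Batf3-/- arrays, so agreement between them is not independent evidence. The difference between them is the contrast of the WT groups, which called 3 genes (0.0233%), 2 higher (0.0155%) and 1 lower (0.00777%) in reporter WT, while 1018 genes (7.91%) had an unadjusted p under 0.05 there. The counts rest on few arrays: without reporter-free WT replicate 1 or 2 the main comparison called 10 and 6 genes, and without reporter WT replicate 1 it called 179, all 72 included. Without Batf3-/- replicate 1, 2 or 3 it called 38, 23 and 39, and without reporter WT replicate 3 it called 37. Leaving out a reporter-free WT array leaves 1 array in that group, which is then assumed to vary like the arrays of the other groups. Leaving out either replicate 3 array leaves 1 array with the CD24-only gate, which the gate term then takes up whole.

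**Figure D1:**
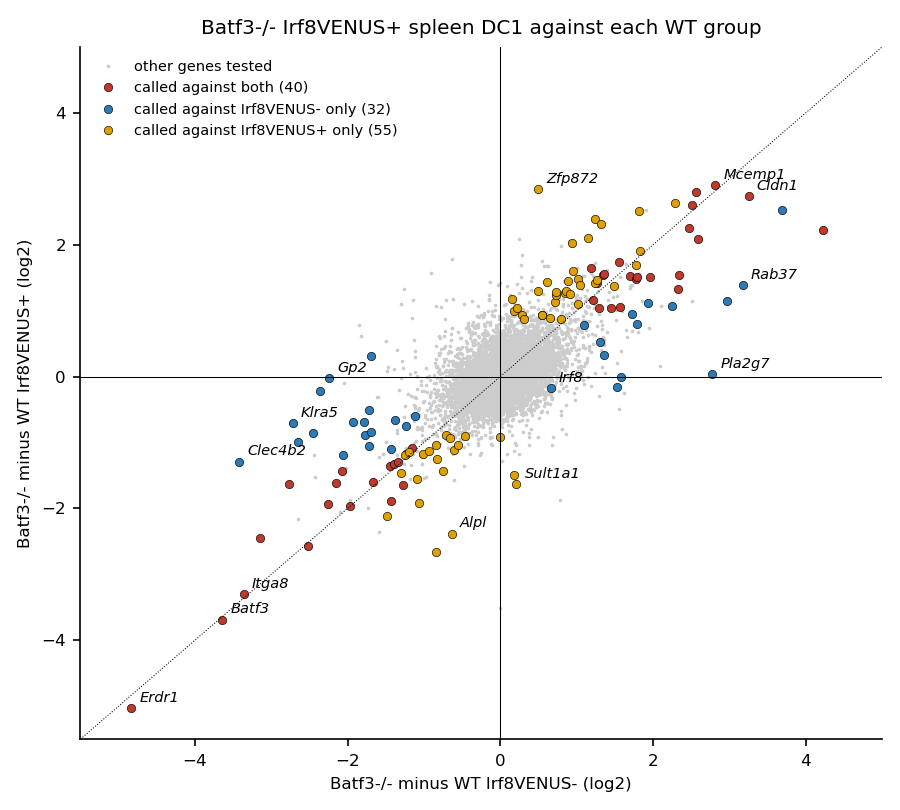
Each point is a gene in spleen DC1, with the log2 difference of Batf3-/- from reporter-free WT (Irf8VENUS-) on the horizontal axis and from reporter WT (Irf8VENUS+) on the vertical axis, from 1 fit. The 40 genes called against both (red) mostly lie near the dotted line of equal differences. Genes called against 1 control only (blue, 32, and yellow, 55) run from near that line to near 1 of the axes. Farp2 (-1.19 and -1.14) and Tifab (-1.43 and -1.10) differ by similar amounts from both controls. Pla2g7 and Sult1a1 are close to 0 on the comparison that did not call them. The axes share the Batf3-/- arrays.

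The genes that held against both controls were apart on every array. For all 40, the 3 Batf3-/- arrays lay outside the range of all 5 WT arrays, which was so for 6.21% of the genes tested. Being called in both comparisons nearly ensures this, so it is a description and not support. Among the 22 higher genes the median difference was 1.79 against reporter-free WT and 1.54 against reporter WT. Among the 18 lower genes it was -2.02 and -1.64. Without reporter WT replicate 1 the count was 68, with 38 of the 40 among them, and without reporter-free WT replicate 1 or 2 it was 6 and 5. Leaving out Batf3-/- replicate 1, 2 or 3 gave 21, 11 and 14, and leaving out reporter WT replicate 3 gave 11.

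The lower genes included several of the DC1 identity list. Pdia5, a protein disulfide isomerase of the endoplasmic reticulum, was at 8.47 and 8.51 in reporter-free WT, at 8.26, 8.65 and 8.65 in reporter WT and at 6.54, 6.57 and 6.56 in Batf3-/- cells. It fell by the same amount against both controls (-1.97 ± 0.19, adjusted p = 0.00505, and -1.97 ± 0.16, adjusted p = 0.00347). Ppef2, which encodes a calcium-binding protein phosphatase, was at 8.49 and 7.94, at 7.96, 7.66 and 7.55, and at 6.16, 5.92 and 5.29 in the same order of groups. Its differences were -2.26 ± 0.24 (adjusted p = 0.00984) and -1.94 ± 0.21. Naaa, an amidase of lipid mediators whose gene is next to Ppef2 among the genes on the array, was high in every group. Naaa went from 11.24 and 11.19 in reporter-free WT to a mean of 9.67 ± 0.57 (SD, n = 3) in Batf3-/- cells, with the CD24-only array lowest at 9.01, a difference of -1.34 ± 0.20 (adjusted p = 0.0326), and of -1.29 ± 0.17 against reporter WT.

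The largest fall was that of Erdr1, the erythroid differentiation regulator gene of the pseudoautosomal region. Its levels were 11.02 and 11.38 in reporter-free WT, 11.73, 11.05 and 11.26 in reporter WT, and 6.09, 6.67 and 6.17 in Batf3-/- cells. The difference of Erdr1 was -4.83 ± 0.27 (adjusted p = 0.0014), and -5.03 ± 0.23 against reporter WT. Its second probe set gave -1.74 and -1.54, in the same direction but much smaller.

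Itga8, an integrin alpha chain that binds matrix proteins with an RGD sequence, was at 7.68 and 7.56 in reporter-free WT, at 7.92, 7.08 and 7.79 in reporter WT and at 4.57, 4.07 and 4.25 in Batf3-/- cells, the last group lying below the filter level. Its differences were -3.36 ± 0.29 (adjusted p = 0.00349) and -3.30 ± 0.24. The matrix protein gene Tgfbi was at 9.34 and 9.02, then at 7.83, 8.19 and 8.11, then at 6.78, 6.16 and 6.30. Here the reporter WT arrays lay between the other groups, and the difference was -2.76 ± 0.25 (adjusted p = 0.00469) against reporter-free WT but -1.63 ± 0.22 (adjusted p = 0.0196) against reporter WT. The contrast of the WT groups for Tgfbi, -1.13 ± 0.25, was not called (adjusted p = 0.385). Arhgap42, a GTPase-activating protein, had no such step: it was at 7.90 and 7.66, at 7.88, 7.92 and 7.89, and at 5.11, 5.28 and 5.60. Its differences were -2.51 ± 0.19 (adjusted p = 0.00227) and -2.57 ± 0.16.

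Ctla2b, which encodes an inhibitor of cysteine proteases, had the widest spread of these genes. Its levels were 7.43 and 7.02 in reporter-free WT, 5.75, 7.04 and 6.41 in reporter WT, and 4.71, 3.71 and 3.45 in Batf3-/- cells, with differences of -3.15 ± 0.45 (adjusted p = 0.0301) and -2.45 ± 0.39. Ctla2b has a near-identical relative in Ctla2a, so its probes may not tell the genes apart. The other lower genes fell by 1.16 to 2.15 against reporter-free WT. They were Ocstamp and Sh3pxd2b, known from osteoclast fusion and podosomes, Fgd6, an exchange factor for Cdc42, the ubiquitin ligase gene Nedd4, Cacnb2 (a calcium channel subunit), Syne1 (nesprin-1), Phka2 (a subunit of phosphorylase kinase), Fxyd5 (a regulator of the sodium pump) and Gm3336. Syne1 has many probe sets, and its call rests on the brightest, at -1.27 and -1.65 against the 2 controls. The next brightest gave -1.23 against reporter-free WT but 0.06 against reporter WT, and the one after -0.76 and -0.52. The probe sets of Syne1 thus disagree on whether it fell against reporter WT.

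The higher genes were mostly dim or moderate in WT cells. Cldn1, a claudin of tight junctions that Langerhans cells also express, was at 7.30 and 6.73 in reporter-free WT, 6.64, 8.06 and 7.80 in reporter WT, and 10.52, 10.39 and 9.79 in Batf3-/- cells. Its difference was 3.25 ± 0.46 (adjusted p = 0.0277) against reporter-free WT and 2.73 ± 0.39 against reporter WT. Cdh17, a cadherin, was under the filter level on all 5 WT arrays (3.25 to 3.90) and at 6.84, 5.98 and 6.19 in Batf3-/- cells. Its differences were 2.56 ± 0.30 (adjusted p = 0.0124) and 2.81 ± 0.25, and since the WT values lie near the array's floor they may understate the fold.

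Mcemp1, which encodes a membrane protein of mast cells and myeloid cells, was at 5.46 and 5.16, at 5.28, 5.16 and 6.07, and at 8.00, 8.25 and 8.96, in the order reporter-free WT, reporter WT and Batf3-/-. Its differences, 2.82 ± 0.18 (adjusted p = 0.00185) and 2.90 ± 0.15 (adjusted p = 0.000423), were close to each other. The same was so of Gfra2, the co-receptor for neurturin, at 5.84 and 5.78, at 6.08, 5.78 and 6.01, and at 8.30, 8.43 and 7.93. Gfra2 rose by 2.47 ± 0.20 (adjusted p = 0.00328) and by 2.26 ± 0.17. The retinol dehydrogenase gene Dhrs9 was at 4.25 and 5.09, at 4.94, 5.38 and 5.75, and at 7.19, 7.34 and 7.82, with differences of 2.58 ± 0.27 (adjusted p = 0.00769) and 2.09 ± 0.23.

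A pair of cytoskeletal genes showed graded levels. Dst, which links cytoskeletal filaments, was at 4.72 and 5.06 in reporter-free WT, at 6.01, 5.85 and 6.09 in reporter WT, and at 7.14, 7.24 and 7.53 in Batf3-/- cells. Parvb, an actin adaptor of integrin adhesions, was at 5.23 and 5.06, at 6.09, 5.77 and 6.31, and at 7.53, 7.50 and 7.78. Neither gene's groups overlapped. Dst differed by 2.32 ± 0.17 (adjusted p = 0.00227) against reporter-free WT and by 1.32 ± 0.15 against reporter WT, and Parvb by 2.35 ± 0.17 (adjusted p = 0.00227) and 1.54 ± 0.15. The contrast of the WT groups was 1.00 ± 0.17 for Dst (adjusted p = 0.24) and 0.80 ± 0.17 for Parvb (adjusted p = 0.379), so neither gene is shown to differ between the controls.

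Cybb, the catalytic subunit of the phagosomal NADPH oxidase, was at 4.70 and 4.83 in reporter-free WT, at 4.67, 4.59 and 4.67 in reporter WT, and at 6.20, 5.90 and 6.51 in Batf3-/- cells. It rose by 1.36 ± 0.18 (adjusted p = 0.0193) and by 1.56 ± 0.15. All 5 WT arrays lay under the filter level, so Cybb entered the test only through its Batf3-/- arrays. The same was so of Cdh17, and of Havcr1 and Nlrc4, which are named below. Stat4 and Ms4a4c also needed Batf3-/- arrays to pass the filter. Fcer1g, the signalling chain shared by Fc receptors, was at 7.88 and 8.12, at 7.70, 7.79 and 8.81, and at 9.39, 9.83 and 10.30, and rose by 1.55 ± 0.21 (adjusted p = 0.0242). Gbp2b, a guanylate-binding protein induced by interferon, was at 5.14 and 4.92, at 5.46, 4.80 and 5.41, and at 7.51, 7.18 and 8.77. Its differences were 2.51 ± 0.32 (adjusted p = 0.0193) and 2.60 ± 0.28. Gbp2b belongs to a family of close copies on chromosome 3, so its probes may also read relatives. Stat4, the transducer of interleukin-12 signals, went from 4.38 and 4.36 in reporter-free WT to 6.12, 5.72 and 6.16, a difference of 1.57 ± 0.19 (adjusted p = 0.0165). The unnamed transcript 2210409E12Rik rose by 4.23 ± 0.39, with both reporter-free WT arrays under the filter level (3.48 and 3.05). The remaining higher genes rose by 1.19 to 1.96. They were the Src-family kinase gene Fgr, the inflammasome sensor gene Nlrc4, Havcr1, which encodes the phosphatidylserine receptor TIM-1, Nrp1, Cd300lf, Ms4a4c, Dock4, Sned1, Gpr82 and B4galt6.

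**Figure D2:**
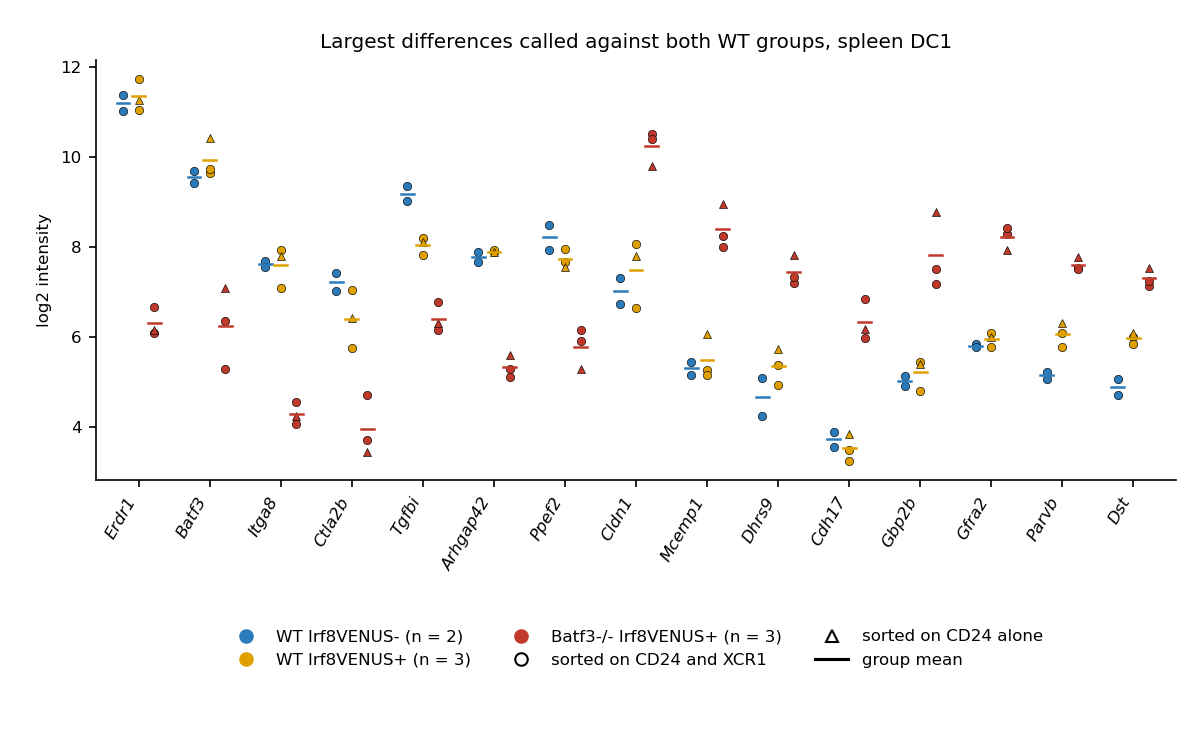
Log2 intensity of spleen DC1 on each array for the 15 named genes with the largest differences that were called against both WT groups, 7 lower and 8 higher in Batf3-/- cells. Circles are arrays sorted on CD24 and XCR1, triangles are replicate 3 of each reporter group, sorted on CD24 alone, and lines are group means. For each gene the 3 Batf3-/- values lie outside the range of the 5 WT values.

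BATF3 binds AP-1 sites, so the promoters of the genes that held were searched for their letters. RefSeq start sites (GRCm38.p6) matched 34 of the 40 genes, with 42 windows of the 250 bases before a start. The AP-1 letters TGANTCA, which read the same on both strands apart from the middle base, were in 4 of these 42 windows (9.52%), 2 of the 22 windows of higher genes and 2 of the 20 of lower genes. The same letters were in 4.94% of the 12625 windows of genes tested and in 6.75% of all 32851 windows. The letters GAAATGA, part of an IRF site run into part of an AP-1 site, were searched on both strands and can overlap the AP-1 letters. They were in 1 of the 42 windows (2.38%), against 3.3% of windows of genes tested. A match is a run of letters and not a bound site. The 4 windows that hold the AP-1 letters are shown because they are the members a reader would look at first for BATF3 binding, with TGANTCA in capitals. They lie at chr2:69380212-69380461 (plus strand, Dhrs9), chr9:72693048-72693297 (plus strand, Nedd4), chr13:60897448-60897697 (minus strand, Ctla2b) and chrX:9469325-9469574 (minus strand, Cybb), and each is written 5′ to 3′ toward the start of the gene.
Dhrs9: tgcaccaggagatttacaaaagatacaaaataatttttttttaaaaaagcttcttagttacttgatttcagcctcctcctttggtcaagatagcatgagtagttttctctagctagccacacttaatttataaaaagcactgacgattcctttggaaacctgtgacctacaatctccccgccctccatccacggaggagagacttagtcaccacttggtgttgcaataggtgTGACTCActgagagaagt
Nedd4: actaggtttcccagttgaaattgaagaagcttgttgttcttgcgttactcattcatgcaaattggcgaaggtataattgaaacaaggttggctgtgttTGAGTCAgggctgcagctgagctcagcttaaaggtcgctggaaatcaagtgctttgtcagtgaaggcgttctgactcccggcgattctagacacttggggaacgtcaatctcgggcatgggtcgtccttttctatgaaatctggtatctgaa
Ctla2b: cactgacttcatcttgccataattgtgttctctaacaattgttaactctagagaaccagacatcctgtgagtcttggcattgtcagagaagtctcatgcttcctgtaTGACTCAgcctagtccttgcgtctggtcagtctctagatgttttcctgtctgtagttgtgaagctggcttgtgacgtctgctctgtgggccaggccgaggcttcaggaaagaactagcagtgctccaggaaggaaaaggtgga
Cybb: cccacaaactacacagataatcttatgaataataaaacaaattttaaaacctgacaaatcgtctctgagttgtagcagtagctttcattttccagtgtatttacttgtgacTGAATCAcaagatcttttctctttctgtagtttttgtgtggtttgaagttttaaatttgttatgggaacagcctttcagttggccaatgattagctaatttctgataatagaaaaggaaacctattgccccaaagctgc
Of these genes, Dhrs9 and Cybb were higher and Nedd4 and Ctla2b lower in Batf3-/- cells. Nedd4 was at 9.98 and 10.32 in reporter-free WT and at 8.51, 8.96 and 8.60 in Batf3-/- cells, a difference of -1.45 ± 0.21 (adjusted p = 0.0301).

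The 32 genes called against reporter-free WT alone were 14 higher and 18 lower in Batf3-/- cells. For 16 of them the Batf3-/- arrays also lay outside all 5 WT arrays, which was so for 6.21% of the genes tested. Being called against reporter-free WT favours this, so it is a description and not support. The reporter WT level lay on the Batf3-/- side of the reporter-free WT level for all 32, which the choice of genes called against 1 control and not the other largely fixes. The median share of the difference that was left against reporter WT was 0.42 for the higher genes and 0.38 for the lower ones, as a ratio of the log2 differences. Only for Klra5 and Pla2g7 did the contrast between the WT groups pass the test, so these 2 are the members shown to differ more from 1 control than from the other. For 10 of the 32 the adjusted p against reporter WT was under 0.1. Without reporter WT replicate 1 the count of such genes was 111, with 29 of the 32 among them, and without reporter-free WT replicate 1 or 2 it was 4 and 1. Leaving out Batf3-/- replicate 1 or 2 gave 17 and 12.

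Pla2g7, the lipase that inactivates platelet-activating factor, had the clearest such pattern. It was at 4.0 and 4.75 in reporter-free WT, at 7.18, 7.12 and 7.53 in reporter WT, and at 7.09, 7.14 and 7.69 in Batf3-/- cells. Its difference was 2.77 ± 0.24 (adjusted p = 0.00349) against reporter-free WT and 0.03 ± 0.20 (adjusted p = 0.968) against reporter WT, and the WT groups differed by 2.74 ± 0.24 (adjusted p = 0.038). Both reporter groups overlapped, and the 2 reporter-free arrays lay below the filter level. The call on the WT groups was kept in 10 of 19 alternative settings, in which the difference ran from 2.37 to 3.11.

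Klra5 encodes Ly49E, a C-type lectin-like receptor of the NK gene complex. It was at 6.40 and 6.49 in reporter-free WT, at 4.32, 4.28 and 6.18 in reporter WT, and at 3.87, 3.85 and 4.94 in Batf3-/- cells. In both reporter groups the array sorted on CD24 alone was the highest. The difference was -2.72 ± 0.21 (adjusted p = 0.00227) against reporter-free WT and -0.71 ± 0.18 (adjusted p = 0.159) against reporter WT, and the WT groups differed by -2.01 ± 0.21 (adjusted p = 0.0444). That call was kept in 7 of 18 alternatives. Ly49 genes are near-identical copies, so the probes may read other family members.

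Clec4b2, a C-type lectin receptor gene, had the largest fall of the 32. It was at 7.97 and 7.29 in reporter-free WT, at 5.65, 4.92 and 7.04 in reporter WT, and at 4.25, 4.60 and 4.89 in Batf3-/- cells. Its difference was -3.42 ± 0.38 (adjusted p = 0.0114), and -1.29 ± 0.33 (adjusted p = 0.169) against reporter WT. Cd207 encodes langerin, a lectin of Langerhans cells and of a share of DC1. It was at 7.42 and 7.55, at 5.55, 6.04 and 6.32, and at 5.13, 5.10 and 5.11, so the groups did not overlap and the Batf3-/- arrays were at the filter level. Cd207 fell by 2.46 ± 0.21 (adjusted p = 0.00374) against reporter-free WT, and its difference from reporter WT was -0.86 ± 0.18 (adjusted p = 0.101). For Gp2, a glycosylphosphatidylinositol-anchored glycoprotein that binds bacteria, both reporter groups were alike. Gp2 was at 8.03 and 7.53, at 5.62, 5.73 and 6.46, and at 5.16, 5.68 and 6.89, with differences of -2.24 ± 0.27 (adjusted p = 0.014) and -0.02 ± 0.23 (adjusted p = 0.98). The contrast between the WT groups was -2.22 ± 0.27 and missed the threshold (adjusted p = 0.0601).

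Pstpip2, an adaptor that bends membranes and restrains macrophage activation, was at 6.64 and 6.72 in reporter-free WT, at 5.42, 4.80 and 5.54 in reporter WT, and at 3.92, 3.98 and 4.88 in Batf3-/- cells. Its differences were -2.65 ± 0.22 (adjusted p = 0.00349) and -0.99 ± 0.19 (adjusted p = 0.07), and its second probe set gave -1.85 against reporter-free WT. The adhesion receptor gene Adgrl3 fell by 1.92 ± 0.31 (adjusted p = 0.045), but its second probe set gave only -0.31. Cd36, the scavenger receptor of the DC1 list that binds dying cells and fatty acids, was at 10.51 and 10.61, at 9.42, 10.09 and 9.45, and at 8.65, 8.97 and 8.81. Its groups did not overlap, and its differences were -1.70 ± 0.24 (adjusted p = 0.0262) and -0.84 ± 0.20 (adjusted p = 0.145). The hyaluronan receptor gene Cd44 fell by 1.77 ± 0.22 (adjusted p = 0.0189) and Cd1d1, which presents lipids to NKT cells, by 1.24 ± 0.18 (adjusted p = 0.0308). The other lower genes were H2-M2, Ipcef1, P3h2, Adam22, Tifab, Prss30, Pot1b, Gm8221 and 4930596I21Rik.

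Among the higher genes of this class, Elobl, a relative of elongin B, had the largest difference and the widest spread. It was at 5.07 and 3.69 in reporter-free WT, at 4.77, 5.65 and 5.70 in reporter WT, and at 8.69, 8.13 and 6.87 in Batf3-/- cells. The difference was 3.69 ± 0.59 (adjusted p = 0.0461), and 2.52 ± 0.50 (adjusted p = 0.0835) against reporter WT. Rab37, a small GTPase of secretory vesicles, was at 4.67 and 4.66, at 5.74, 6.81 and 6.59, and at 8.14, 7.87 and 7.28, and its groups did not overlap. Rab37 differed by 3.17 ± 0.37 (adjusted p = 0.0124) and by 1.38 ± 0.31 (adjusted p = 0.118). Cd84, a SLAM-family receptor, followed the same order, at 4.73 and 4.25, at 5.61, 5.62 and 6.40, and at 7.00, 6.63 and 7.19. Its differences were 2.25 ± 0.22 (adjusted p = 0.00505) and 1.06 ± 0.19 (adjusted p = 0.0529), so Cd84 was not called against reporter WT. Both reporter-free WT arrays lay under the filter level for Rab37 and for Cd84, so these genes passed the filter through the reporter groups.

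For Aldh2 and Utf1, as for Irf8, both reporter groups overlapped. The mitochondrial aldehyde dehydrogenase gene Aldh2 was at 8.51 and 8.28 in reporter-free WT, at 10.49, 9.81 and 11.11 in reporter WT, and at 9.74, 9.98 and 11.22 in Batf3-/- cells. The difference of Aldh2 was 1.53 ± 0.24 (adjusted p = 0.0406), and -0.15 ± 0.20 against reporter WT. Its second probe set gave 0.88 against both controls and 0.00 between them, so the probe sets disagree on whether the WT groups differ. Utf1, a chromatin factor of pluripotent cells, was at 4.81 and 5.09, at 6.33, 6.80 and 5.80, and at 6.37, 6.64 and 5.88, with a difference of 1.58 ± 0.20 (adjusted p = 0.0193) and of -0.01 ± 0.17 against reporter WT. The intermediate filament gene Vim rose by 1.09 ± 0.17 (adjusted p = 0.0403) and the death-associated kinase gene Dapk1 by 1.36 ± 0.18 (adjusted p = 0.0228). Against reporter WT, Vim differed by 0.78 ± 0.14 (adjusted p = 0.0622) and Dapk1 by 0.32 ± 0.16 (adjusted p = 0.53). The Batf3-/- arrays of Vim lay above all 5 WT arrays, and its second probe set gave 1.49 and 1.03 against the 2 controls. The other higher genes were Kyat3, Nccrp1, Gm4787, B430306N03Rik and A530064D06Rik. Gm4787 was under the filter level on all 5 WT arrays and entered the test only through its Batf3-/- arrays. A530064D06Rik was under that level on both reporter-free WT arrays (3.08 and 3.51).

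**Figure D3:**
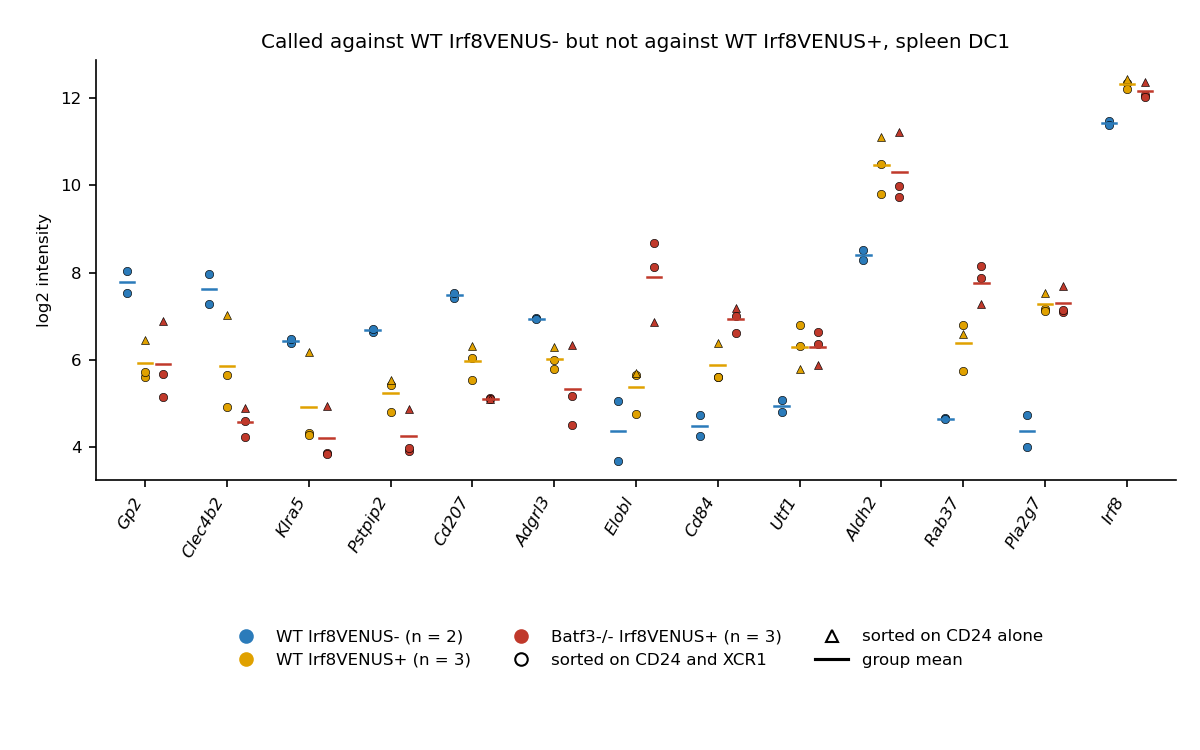
Log2 intensity of spleen DC1 on each array for genes called against reporter-free WT (Irf8VENUS-) but not against reporter WT (Irf8VENUS+): the 6 with the largest difference between the WT groups in each direction, unnamed transcripts (Gm and Rik symbols) left out, and Irf8. Symbols are as for the plot of genes called against both. For Pla2g7, Utf1, Aldh2, Gp2 and Irf8 the yellow and red points overlap and the blue points lie apart. For Cd207, Rab37 and Cd84 the 3 groups do not overlap.

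The 55 genes called against reporter WT alone were 34 higher and 21 lower in Batf3-/- cells. Against reporter-free WT the median difference of these genes was 0.88 for the higher and -0.83 for the lower ones, beside 1.33 and -1.19 against reporter WT. All but Khdrbs3 and Sult1a1 had the same sign in both, 20 differed by more than 1 against reporter-free WT, and for 12 the adjusted p there was under 0.1. Sult1a1, a sulfotransferase of phenols, was the only one whose WT contrast passed. It was at 7.15 and 6.92 in reporter-free WT, at 8.90, 8.73 and 9.03 in reporter WT, and at 7.30, 7.29 and 7.19 in Batf3-/- cells. Sult1a1 differed by -1.63 ± 0.16 from reporter WT (adjusted p = 0.00618) and by 0.21 ± 0.19 from reporter-free WT (adjusted p = 0.868), and the WT groups differed by 1.83 ± 0.19 (adjusted p = 0.0444), a call kept in 7 of 19 alternatives. Without reporter WT replicate 1, 2 or 3 the count of genes called against reporter WT alone was 88, 26 and 13, with 35, 16 and 5 of the 55 among them. Without Batf3-/- replicate 1, 2 or 3 it was 19, 17 and 11, with 7, 9 and 5 of the 55, and without reporter-free WT replicate 1 or 2 it was 41 and 42, with 18 of the 55 each time.

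The genes of this class described next were those with the smallest differences from reporter-free WT. Cadm1, an adhesion molecule that marks DC1, was at 9.79 and 9.73 in reporter-free WT, at 10.23, 10.09 and 10.03 in reporter WT, and at 9.49, 9.17 and 8.98 in Batf3-/- cells, so all 3 Batf3-/- arrays were the lowest. Its difference was -0.46 ± 0.17 (adjusted p = 0.431) from reporter-free WT and -0.90 ± 0.14 (adjusted p = 0.0381) from reporter WT. Etv5, an ETS factor gene, was at 6.15 and 6.16, at 5.18, 5.16 and 6.02, and at 6.48, 6.06 and 7.37, with differences of 0.16 ± 0.18 and 1.18 ± 0.15 (adjusted p = 0.0191). The second probe set of Etv5 gave 0.62 and 0.91. Between the WT groups the 2 probe sets gave -1.02 and -0.29, so they disagree on how far the controls differ. Epsti1, an interferon-responsive gene, was at 10.40 and 10.21, at 9.38, 9.46 and 9.36, and at 10.54, 10.63 and 10.14, with differences of 0.22 ± 0.16 and 1.04 ± 0.14 (adjusted p = 0.0191). For Etv5 and Epsti1 the Batf3-/- arrays overlapped those of reporter-free WT. By the same rule Tank, Adcy6, Phf11b and Tmem123 differed from reporter-free WT by 0.18 to 0.49, and Erc1, Khdrbs3, Aff3 and Mical2 by -0.00, 0.18, -0.55 and -0.61, none of them past the threshold.

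Gene lists were read against the median of all genes tested, which was 0.00 against reporter-free WT and -0.02 against reporter WT. The share of all genes called, 0.559% against reporter-free WT (0.28% in each direction) and 0.738% against reporter WT (0.435% higher and 0.303% lower), stands beside every list count given here. Of the 31 DC1 identity genes tested, 6 fell (Batf3, Pdia5, Naaa, Ppef2, Cd36 and Cd207) and 1, Irf8, rose, with a median of -0.41 against each control. Against reporter WT, 6 fell (Batf3, Pdia5, Naaa, Ppef2, Cadm1 and Snx22) and 0 rose. The markers Xcr1, Wdfy4, Tlr3 and Cd8a were not among those called. Wdfy4, needed for cross-presentation, was at 10.89 and 10.91 in reporter-free WT and at 10.64, 10.50 and 10.11 in Batf3-/- cells (-0.39 ± 0.17, adjusted p = 0.547). Gcsam had the widest gap without a call, from 9.43 and 8.84 to 8.18, 7.70 and 5.27 (-1.59 ± 0.53, adjusted p = 0.368), with the CD24-only array lowest.

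The lists of maturation and of class II presentation differed in their reading by control. Of 38 genes of DC maturation and migration, 1 (Stat4) was called against reporter-free WT and 3 against reporter WT, all higher, and the median was 0.16 and 0.45. Ccr7, the receptor that guides dendritic cells to lymph nodes, was at 9.84 and 9.09 in reporter-free WT, at 7.39, 8.99 and 8.24 in reporter WT, and at 10.45, 10.47 and 9.90 in Batf3-/- cells. All 3 Batf3-/- values were the highest, but the difference was 0.89 ± 0.46 (adjusted p = 0.664), beside 2.06 (adjusted p = 0.07) against reporter WT. Fscn1, an actin-bundling protein of mature dendritic cells, was at 6.76 and 6.25 against 7.78, 7.82 and 7.13 in Batf3-/- cells, a difference of 1.23 ± 0.22 that missed the threshold (adjusted p = 0.0657). For class II presentation, 0 of 13 genes were called, 2 of 13 were higher in Batf3-/- cells than in reporter-free WT (median -0.16) and 12 of 13 higher than in reporter WT (median 0.17). Reporter WT was lower than reporter-free WT for 12 of these 13 genes, and for several of them its replicate 1 was the lowest array, as for H2-Oa at 7.34 against 8.40 to 10.05 on the other 7 arrays.

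The list of tissue dissociation stress genes had medians on opposite sides of 0 by control. Against reporter-free WT the median of the 22 genes was -0.08 and 8 were higher in Batf3-/- cells, whereas against reporter WT it was 0.29 and 18 were higher, with 0 called in either. The WT contrast had a median of -0.51 over these genes. Atf3 was at 10.21 and 10.81 in reporter-free WT, at 8.15, 9.46 and 9.63 in reporter WT and at 10.82, 11.04 and 10.92 in Batf3-/- cells. Hspa1a was at 10.58 and 11.19, at 11.75, 7.37 and 8.94, and at 10.61, 10.90 and 10.07, so the reporter WT arrays spread widely among themselves. The part of these differences in the genes called against 1 control alone was not tested.

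Against reporter-free WT, guanylate-binding proteins and interferon GTPases had the highest list median, 1.01 over 10 genes. Of these, 9 were higher in Batf3-/- cells and 1, Gbp2b, was called. Against reporter WT the median of this list was 0.69, below that of the Ms4a family at 1.05, with 9 higher and 1 called. Iigp1 was at 6.44 and 5.57 in reporter-free WT and at 7.97, 8.08 and 6.12 in Batf3-/- cells (1.80 ± 0.38, adjusted p = 0.119), and Gbp4 had the opposite sign (-1.17 ± 0.37, adjusted p = 0.325). The 17 type I interferon response genes had a median of 0.00 against reporter-free WT and 0.25 against reporter WT. Of them, 9 and 13 were above 0, with 0 called in either. Of 31 cell cycle genes 0 were called, with a median of 0.34 against reporter-free WT and 0.06 against reporter WT. Mki67 was at 8.59 and 8.30 in reporter-free WT, at 9.14, 8.88 and 8.83 in reporter WT and at 9.05, 9.25 and 8.88 in Batf3-/- cells (0.69 ± 0.19, adjusted p = 0.22).

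Against reporter-free WT, most lists of other factors and receptors held 1 called member or none. Of the 17 AP-1 factors only Batf3 was called. Batf, a relative that can act in place of Batf3, was at 5.91 and 6.67 in reporter-free WT and at 5.90, 6.39 and 6.80 in Batf3-/- cells (-0.18 ± 0.41, adjusted p = 0.969). Of 27 DC transcription factors Batf3 fell and Irf8 rose. Against reporter WT Batf3 fell, Irf8 was not called and 1 other factor rose. Against reporter-free WT, 1 of 6 was called in the Ms4a family (Ms4a4c), 1 of 7 NK-complex receptors (Klra5) and 1 of 17 integrins (Itga8). In the junction proteins it was 2 of 12 (Cdh17 and Cldn1), in cross-presentation 1 of 20 (Cybb) and in lipid handling 2 of 19 (Pla2g7 higher, Cd36 lower). In uptake receptors it was 1 of 11 (Cd36) and in C-type lectin receptors 1 of 8 (Cd207). Clec4b2, also called lower, was not on the C-type lectin list. Called against reporter WT were 2 higher genes of the Ms4a family, 1 higher of the NK-complex receptors, and 2 higher and 1 lower of the junction proteins. The integrins held 1 lower there, cross-presentation and lipid handling 1 higher each, and the uptake and C-type lectin lists 0. No gene was called against either control among 18 of class I presentation, 20 cytokines and chemokines or 13 chemokine receptors. The same was so of 16 Toll-like receptors and adaptors, 18 costimulatory and coinhibitory ligands and 17 of cholesterol biosynthesis. The genes with the smallest p against reporter-free WT in these 6 lists without a call were Tapbpl, Ccl17, Ccr2, Tlr1, Cd274 and Hsd17b7.

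No marker of other cells was called against reporter-free WT among the 17 cDC2, 15 plasmacytoid, 12 macrophage and monocyte, 6 T cell, 5 B cell, 4 NK cell, 4 neutrophil, 9 stromal and 1 erythroid genes tested, beside 0.559% of all genes. Of these lists, 13 of the 17 cDC2 genes and 12 of the 15 plasmacytoid genes were above 0, with medians of 0.19 and 0.26, and 5 of the 12 macrophage and monocyte genes. The summed level of the cDC2 list, as log2, ran from 11.91 to 12.13 in Batf3-/- cells and from 12.00 to 12.02 in reporter-free WT, and that of the plasmacytoid list from 11.18 to 11.38 and from 10.74 to 11.00, with reporter WT at 11.04 to 11.16. The plasmacytoid sums of Batf3-/- cells thus lay above those of all 5 WT arrays. The macrophage and monocyte list ran from 11.06 to 11.43 and from 11.20 to 11.47. Only 2 Langerhans cell markers were tested, Cldn1 higher and Cd207 lower, while Epcam, Cdh1 and Gjb2 lay below the filter. Of the cDC2 genes, Klf4 was at 7.20 and 7.78 in reporter-free WT and at 8.67, 8.63 and 8.69 in Batf3-/- cells (1.04 ± 0.26, adjusted p = 0.181). Klf4 was called against reporter WT (1.39, adjusted p = 0.0378). Ccr2, a chemokine receptor gene of the cDC2 list, was at 7.25 and 7.17 in reporter-free WT and at 8.27, 8.56 and 8.86 in Batf3-/- cells (1.2 ± 0.25, adjusted p = 0.119). Lag3, an inhibitory receptor gene of the plasmacytoid list, was at 5.88 and 6.67, at 5.89, 6.14 and 5.85 in reporter WT, and at 8.53, 8.04 and 7.03 in Batf3-/- cells. Its Batf3-/- arrays were the highest, and its difference was 1.83 ± 0.35 (adjusted p = 0.0932) against reporter-free WT and 1.91 ± 0.30 against reporter WT, where it was called (adjusted p = 0.0378). Cd14, a co-receptor gene of the macrophage and monocyte list, was at 4.34 and 4.66 and at 6.01, 5.63 and 6.76 (1.32 ± 0.33, adjusted p = 0.187). The part of these markers in the genes called was not tested.

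**Figure D4:**
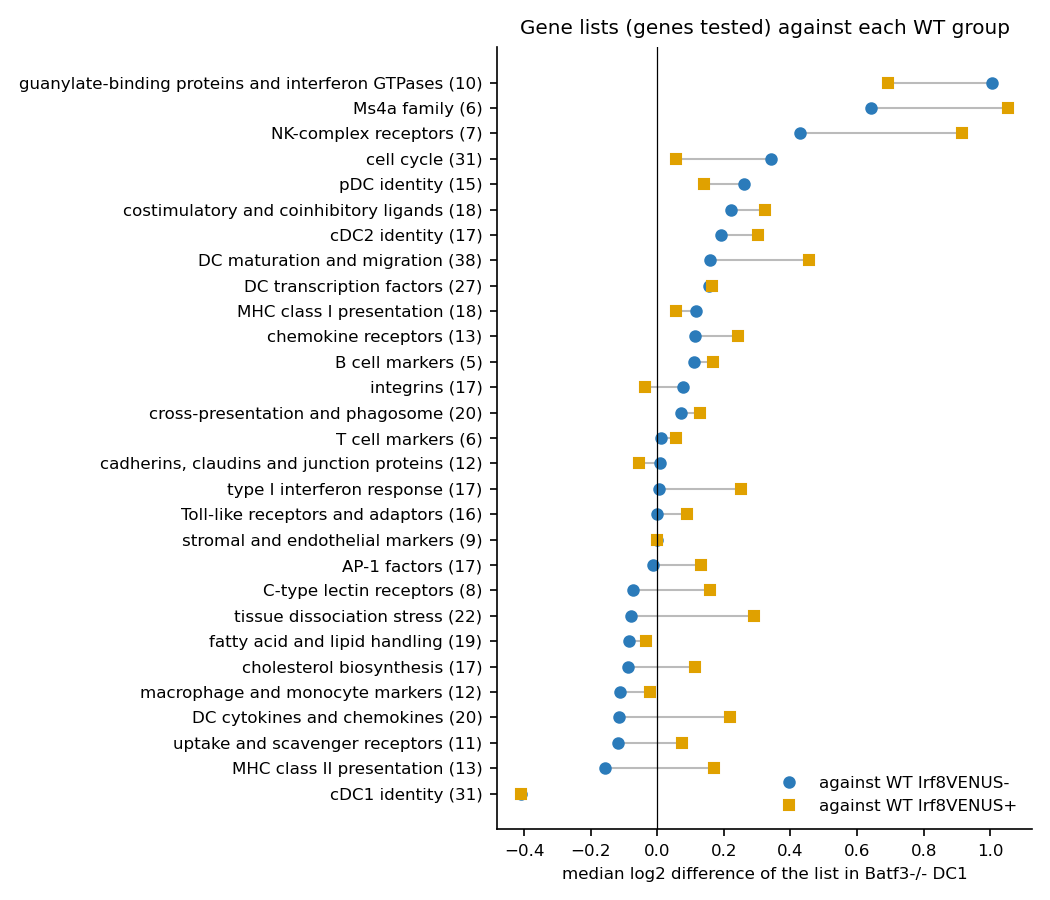
Median log2 difference of Batf3-/- spleen DC1 from reporter-free WT (blue circles) and reporter WT (yellow squares) for each list with at least 5 genes tested, the number in parentheses. DC1 identity is the lowest list at -0.41 on both, and the medians of class II presentation, dissociation stress and several others lie on opposite sides of 0 by control. The points of a list share the Batf3-/- arrays, and no test was made on a list.

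Arrays of another tissue gave an independent look at the same genes. Resident DC1 of skin-draining lymph nodes were profiled on another array type in 3 Batf3-/- and 3 WT samples, all Irf8VENUS+, and 220 of 11931 genes (1.84%) were called, 101 higher (0.847%) and 119 lower (0.997%). The titles there carry codes shared by WT and Batf3-/- arrays, and with the code as a replicate block 280 genes were called, 218 of the 220 among them. Without WT replicate 2 or 3 the count was 95 and 98, and without Batf3-/- replicate 1 or 2 it was 117 and 128. Of the 40 genes that held against both spleen controls, 38 were tested there and 27 (71.1%) were called in the same direction. Of the 32 called against reporter-free WT alone, 23 were tested and 7 (30.4%) were called in the same direction. Of the 55 called against reporter WT alone, 49 were tested and 25 (51.0%) were called in the same direction. No gene of these classes was called in the opposite direction, and the sign was the same for 37, 21 and 49 genes. Batf3, the deleted gene, is among the 27. No test was made of the difference between these shares.

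The lymph node values were close to the spleen ones for some genes and not for others. Itga8 differed by -2.95 ± 0.19 there (adjusted p = 7.87e-06), Arhgap42 by -2.46 ± 0.20 (adjusted p = 3.11e-05), Gfra2 by 2.57 ± 0.32 (adjusted p = 0.00079) and Mcemp1 by 2.06 ± 0.22 (adjusted p = 0.000247). For Ctla2b (-0.18 ± 0.17, adjusted p = 0.923), Gbp2b (0.27 ± 0.13, adjusted p = 0.58) and Stat4 (0.22 ± 0.21, adjusted p = 0.928) the lymph node difference was small and not called. Cybb was the only 1 of the 38 with the opposite sign, at -0.76 ± 0.46 (adjusted p = 0.744). Whether the tissues differ was not tested, since the tables hold separate array types.

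Among the genes called against reporter-free WT alone, Cd36 fell by 2.29 ± 0.28 in lymph node (adjusted p = 0.000681), Rab37 rose by 1.19 ± 0.16 (adjusted p = 0.00135) and Elobl by 1.76 ± 0.35 (adjusted p = 0.0248). The others called there were Nccrp1, Ipcef1, Adam22 and Prss30. Irf8 differed by -0.14 ± 0.18 (adjusted p = 0.974), where both groups carried the reporter, and Pla2g7 by 0.67 ± 0.37 (adjusted p = 0.666). Aldh2 was at 0.27 ± 0.22 (adjusted p = 0.886) and Utf1 at 0.76 ± 0.23 (adjusted p = 0.162). Klra5, Clec4b2, Cd207, Gp2 and Pstpip2 had no tested value in that table.

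**Figure D5:**
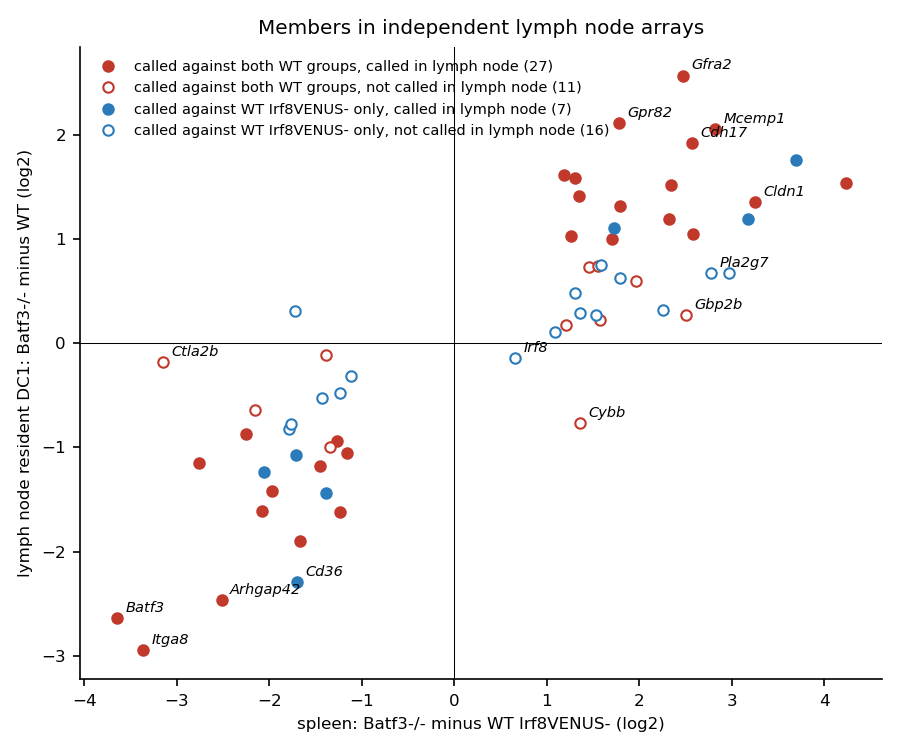
Log2 difference in spleen DC1, Batf3-/- minus reporter-free WT, on the horizontal axis and in resident lymph node DC1, Batf3-/- minus WT, on the vertical axis, for the 61 of 72 genes tested in both. Filled points, 27 red and 7 blue, were called in lymph node in the same direction. Itga8, Batf3, Arhgap42 and Gfra2 lie far from 0 on both axes, Cybb has opposite signs, and Irf8, Pla2g7, Gbp2b and Ctla2b lie near 0 or low on the lymph node axis.

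By gene order on the chromosomes, none of the tested genes within 10 array genes of Batf3 on either side was called. Some members are direct neighbours on the array: Elobl with 2210409E12Rik and Rab37 with Cd300lf on chromosome 11, Gbp2b with Kyat3 on chromosome 3, and Ppef2 with Naaa on chromosome 5, each pair moving the same way. P3h2 and Cldn1 on chromosome 16 are also neighbours and moved in opposite directions, -1.79 ± 0.29 and 3.25 ± 0.46. Genes that overlap or lie side by side can share probe signal, which was not tested here.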

How the data were processed

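The authors' values come from RMA, per the submitters' processing notes, with neither version nor genome build given in the sources used here. Spleen values as deposited were linear intensities, of which log2 was taken. The deposited lymph node values were already log2. Each table was tested on its own. Names came from the platform annotation (23521 of 41345 spleen probe sets had 1 symbol, 1814 several and 16010 none). Symbols were checked against RefSeq by gene identifier (23328 spleen probe sets matched), which changed 0 of them. The brightest probe set stood for a gene. With R 4.3.3, limma 3.58.1 (eBayes with a trend) was fitted to all 8 spleen arrays with group and sort gate as terms (4 residual degrees of freedom), and to all 11 lymph node arrays by group. Adjustment was by Benjamini-Hochberg over all genes tested, called under 0.05. Tested on simulated data of the main comparison (12875 genes, 200 changed), the fit recovered 0%, 24.5% and 84% of log2 changes of 0.5, 1 and 2. The arrays' number limits the precision, and no probe has a background measure.

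The members, the rule for naming genes and the 34 gene lists were chosen with earlier results of these data known. The rule took Batf3, Irf8 and sort gate genes, the 12 largest changes in each direction, the genes whose WT contrast was called, the 6 largest WT contrasts in each direction among genes called against reporter-free WT alone, the 6 smallest differences in each direction among those called against reporter WT alone, and up to 3 called genes per list. The largest changes and the WT contrasts left out symbols of unnamed transcripts (Gm, Rik). Genes outside the rule were named with their values known. Replicate numbers 1 and 2 are shared by the compared groups, but the labels do not say that they pair arrays, so no block was used. Deviations of same-numbered Batf3-/- and reporter-free WT arrays correlated at 0.0151 and -0.0335. With 2 reporter-free WT arrays the deviations of that group mirror each other, so these values say little about pairing. Pairing with the reporter WT arrays was not checked.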

Additional observations from a re-analysis of the deposited data

Results flagged for a closer look

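Against the same Batf3-/- arrays, 3 genes gave a difference that depended on the WT group, by the contrast of the WT groups in limma with Benjamini-Hochberg adjustment over 12875 genes. The values are reporter WT minus reporter-free WT: Pla2g7 at 2.74 (adjusted p = 0.038, adjusted p 0.0137 to 0.247 over the alternatives), Klra5 at -2.01 (adjusted p = 0.0444, 0.0137 to 0.539) and Sult1a1 at 1.83 (adjusted p = 0.0444, 0.0137 to 0.489). The Batf3-/- arrays lay with reporter WT for Pla2g7, nearer reporter WT for Klra5 and with reporter-free WT for Sult1a1.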

How the results depend on the processing

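Over the alternatives run, no called value of a named gene changed sign, and of the 72 genes called against reporter-free WT only Arhgap42, Dst, Erdr1, Mcemp1 and Pla2g7 were called in all 19. The 72 became 39 with only arrays sorted on CD24 and XCR1 and 164 with array weights, and 6 to 179 with 1 array left out. The 95 against reporter WT became 46 with only the groups compared, 25 with only arrays sorted on CD24 and XCR1, 262 with array weights, and 24 to 156 with 1 array left out. The 40 called against both became 14 with only those sorted arrays, 90 with weights, and 5 to 68. The 32 called against reporter-free WT alone became 74 with weights, of which 18 were among the 32, and 1 to 111. The 3 genes of the WT contrast became 1 with no filter, 1 with median centring, 18 with weights, 0 with only the groups compared (limma, 752 genes at an unadjusted p under 0.05), 0 with the replicate block in place of the gate term (1045 genes), and 0 to 15 with 1 array left out (585 to 1284 genes). The lymph node count of 220 became 349 with only the 6 resident arrays and 95 to 177 with 1 array left out. Settings with fewer arrays also have fewer degrees of freedom, and the cause of the changes in count was not tested. With the replicate number as a block the main comparison called 51 genes, 49 of them among the 72, and 28 against both. Log2 changes near 1 are mostly missed at this number of arrays, so a gene that was not called is not shown to be unchanged.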
